A study of Mus musculus with 12 samples.

Results

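The comparison described here is that of control (Ctrl) jejunal epithelium at day 3 with control epithelium at day 1, that is, what changed over this interval without the loss of Fzd5. Members were chosen by label alone: the 3 libraries of Ctrl day 3 and the 3 of Ctrl day 1, 6 of the 12 libraries of the series, and the 13918 of 55421 listed genes that reached 1 TPM in at least 3 of these 6. TPM is a transcript abundance scaled for length and to the same total in each library. Gene expression was measured by bulk total-RNA sequencing of intestinal epithelial cells from mouse jejunum. The other 6 libraries carry the genotype label fzd5ko, 3 at day 1 and 3 at day 3 (Fzd5KO), and were used to fit the spread and for a comparison of the day changes. The sources used here do not give the event from which days were counted, the strain, the age, the alleles or any Cre driver. Nor do they tell whether the replicates are separate animals, and p-values therefore speak only of the spread among the libraries at hand, which may be technical.

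The jejunal epithelium renews itself from stem cells in the crypt base, whose progeny divide, leave the crypt and mature into absorptive enterocytes along the villus or into goblet, Paneth, enteroendocrine and tuft cells. Enterocytes take up sugars, peptides and fat, and many of their transporters and metabolic enzymes follow both food intake and the circadian clock. In that clock, BMAL1 (the product of Arntl) pairs with CLOCK or NPAS2 and drives the Per, Cry, Nr1d1, Nr1d2, Ciart, Dbp, Tef and Hlf genes through E-boxes. PER and CRY proteins block this pair, and the REV-ERB receptors (Nr1d1, Nr1d2) compete with ROR receptors at ROR elements to set Arntl, Npas2, Cry1 and Nfil3. DBP, TEF and HLF activate, and NFIL3 represses, genes that carry a D-box.

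Promoters of clock genes are shown because many of these genes changed between the days, some higher and some lower. Each is the stretch of 250 bases before the start in the RefSeq promoter table (build GRCm38.p6), written 5′ to 3′ on the gene's strand, with motif letters in capitals. Both strands were searched for the E-box CACGTG, the D-box TTANGTAA, the ROR element core AGGTCA, which reads TGACCT on the other strand, and the full ROR element, which is that core preceded by AANT.
Ciart (chr3:95882229-95882478, minus strand): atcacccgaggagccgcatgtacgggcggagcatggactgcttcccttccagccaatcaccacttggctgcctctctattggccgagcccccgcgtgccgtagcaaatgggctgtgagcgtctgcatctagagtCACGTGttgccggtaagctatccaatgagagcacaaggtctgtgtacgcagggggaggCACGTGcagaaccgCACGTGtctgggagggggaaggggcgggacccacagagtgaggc
Tef (chr15:81802423-81802672, plus strand): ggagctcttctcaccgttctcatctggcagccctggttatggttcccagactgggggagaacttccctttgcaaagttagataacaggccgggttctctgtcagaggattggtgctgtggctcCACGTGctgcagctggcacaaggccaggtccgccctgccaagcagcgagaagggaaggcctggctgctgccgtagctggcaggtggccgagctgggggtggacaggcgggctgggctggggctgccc
Cry1 (chr10:85185055-85185304, minus strand): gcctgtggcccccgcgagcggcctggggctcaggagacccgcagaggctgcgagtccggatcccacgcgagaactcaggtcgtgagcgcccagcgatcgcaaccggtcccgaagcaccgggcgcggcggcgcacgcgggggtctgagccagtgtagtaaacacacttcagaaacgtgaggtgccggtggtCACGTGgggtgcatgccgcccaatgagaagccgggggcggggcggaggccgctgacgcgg
Per3 (chr4:151044666-151044915, minus strand): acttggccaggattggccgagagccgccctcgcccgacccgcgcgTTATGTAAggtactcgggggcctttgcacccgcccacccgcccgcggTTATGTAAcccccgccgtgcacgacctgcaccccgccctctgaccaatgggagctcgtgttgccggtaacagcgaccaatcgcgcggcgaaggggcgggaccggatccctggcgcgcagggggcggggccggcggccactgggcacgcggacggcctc
Nr1d2 (chr14:18239107-18239356, minus strand): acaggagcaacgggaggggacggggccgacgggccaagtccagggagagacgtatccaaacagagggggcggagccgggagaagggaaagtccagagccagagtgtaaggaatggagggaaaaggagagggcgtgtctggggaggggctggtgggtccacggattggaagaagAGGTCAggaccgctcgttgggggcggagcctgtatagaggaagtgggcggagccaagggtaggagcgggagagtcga
Nfil3 (chr13:52981040-52981289, minus strand): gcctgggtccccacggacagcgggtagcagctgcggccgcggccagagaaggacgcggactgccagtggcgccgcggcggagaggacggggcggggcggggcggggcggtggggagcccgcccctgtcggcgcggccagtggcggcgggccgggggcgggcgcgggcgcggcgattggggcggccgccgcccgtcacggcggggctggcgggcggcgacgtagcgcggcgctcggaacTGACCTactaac

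Of 33 clock genes looked up, 27 had a promoter in that table. An E-box lay in 5 of the 27 (Ciart with 3 matches, Tef, Cry1, Per1 and Bhlhe41), against 6.02% of all 32851 promoters of this length. A D-box lay in 1 (Per3, with 2 matches), against 2.06% of all. The full ROR element lay in 1 (Leo1), against 0.18%, and its core in 5 (Nr1d2, Nfil3, Per1, Nampt and Leo1), against 14.0%. Among the genes with an E-box here, Ciart and Tef fell, Cry1 rose and Per1 was not called. A match is a description of these letters only, and Arntl, Nr1d1 and Dbp held none of the motifs in this window.

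The 6 libraries separated by day on the first principal component of the log2 values (45.3% of the variance). Ctrl day 1 replicate 1 stood apart on the second component (19.3%), with a score of 25.6 against −15.5 and −18.7 for the other day 1 libraries, and had 24467 genes above 0 against 21760 to 22613 in the other 5. The small RNAs 7SL and 7SK took 22.9 to 25.7% of the TPM at day 1 and 19.8 to 21.1% at day 3, and rescaling without abundant RNAs gave counts close to those below (3651 higher and 1560 lower). With limma on log2(TPM + 1) and Benjamini-Hochberg adjustment, 3669 genes were called higher at day 3 (26.4% of those tested) and 1553 lower (11.2%), together 37.5%. Without Ctrl day 1 replicate 1 the counts were 2849 and 1390. The split depended on the scale: after quantile normalization 2291 genes were higher and 2288 lower, and after median-of-ratios scaling 1728 were higher and 2532 lower. The median gene changed by 0.12 on the log2 scale, a shift that median-of-ratios scaling brought to 0.00048, so small changes are relative to the scale chosen. Only 74 called genes rose by more than 1 and 133 fell by more than 1. Changes below are log2(TPM + 1) differences, day 3 minus day 1, ± SE, which understate the change of low genes.

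Markers of the small intestine were present. Sis, Alpi, Vil1, Apoa4 and Fabp1 of absorptive enterocytes lay between 387 and 4693 TPM in the 6 libraries, and the stomach marker Gkn1, the colon marker Car1 and the acinar pancreas marker Prss2 were listed at 0 in all 6. Other markers of these tissues were not at 0: Aqp8 of the colon lay at 0.07 to 0.84 TPM, and of the acinar list Cela1 lay at 4.06 to 8.35 TPM and the colipase gene Clps stood at 112, 107 and 86.0 TPM at day 1 and 96.5, 109 and 87.8 TPM at day 3. Summed over the acinar list, the days overlapped, at 91.5 to 122 TPM and 94.7 to 115 TPM. Fabp6, a bile acid binding protein best known from the ileum, was present at 146 to 368 TPM. Fzd5 itself, the Wnt receptor named in the genotype label, stood at 43.5, 49.4 and 46.8 TPM at day 1 and 68.2, 65.9 and 60.5 TPM at day 3 in the control. It rose by 0.47 ± 0.055 (adjusted p = 6.79e-05). In the libraries labelled fzd5ko it stood at 31.9, 33.1 and 33.1 TPM at day 1 and 39.7, 37.8 and 38.3 TPM at day 3, so its transcript was still present there. The sources used here do not give the deleted part.

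Clock genes divided into 2 arms between the days: Arntl, Npas2, Cry1 and Nfil3 were high at day 3, and the REV-ERB genes and the activators at D-boxes were low. In GENCODE M21 (GRCm38) Nr1d1 spans chr11:98767932-98775333, Dbp chr7:45705088-45710203 and Arntl chr7:113207465-113314126. Nr1d1, which encodes REV-ERB alpha, stood at 21.3, 21.7 and 20.8 TPM at day 1 and 0.88, 0.86 and 0.47 TPM at day 3 (log2 change −3.69 ± 0.087, adjusted p = 3.00e-10). Dbp, an activator at D-boxes, stood at 35.8, 35.2 and 34.7 TPM at day 1 and 3.44, 2.51 and 2.64 TPM at day 3 (−3.24 ± 0.088, adjusted p = 6.59e-10). Nr1d2, which encodes REV-ERB beta, stood at 33.2, 34.8 and 35.6 TPM at day 1 and 7.24, 7.08 and 6.52 TPM at day 3 (−2.16 ± 0.059). For these genes every day 3 library lay below every day 1 library, and Nr1d1 and Dbp fell the most among genes of at least 5 TPM in the higher group, predicted and small RNA genes aside.

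On the activating side, Arntl and Npas2 rose and Clock was not called. Arntl, which encodes BMAL1, stood at 7.85, 7.28 and 6.58 TPM at day 1 and 25.0, 25.7 and 24.1 TPM at day 3 (1.66 ± 0.074, adjusted p = 3.37e-08). Npas2, a partner of BMAL1, rose from 5.54 ± 0.43 to 8.80 ± 1.27 TPM (0.58 ± 0.11). The days did not overlap for either gene. Clock, the other partner of BMAL1, was at 33.5, 34.2 and 34.8 TPM at day 1 and 35.0, 35.1 and 36.5 TPM at day 3 and was not called (0.055 ± 0.043, adjusted p = 0.335). Arntl2 and Rora were below the filter at 0.06 to 0.83 TPM.

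The repressor list divided, with 4 of 9 tested members higher and 4 lower, against 26.4% and 11.2% of all genes (median 0.073). Beside Nr1d1 and Nr1d2, Ciart, which encodes an inhibitor of the CLOCK and BMAL1 pair, fell from 2.83 ± 0.63 to 0.55 ± 0.21 TPM (−1.30 ± 0.15, adjusted p = 7.22e-05) and Per3 from 17.1 ± 1.92 to 8.59 ± 1.09 TPM (−0.92 ± 0.091). The cryptochrome Cry1, whose promoter is shown above with 1 E-box, stood at 6.72, 6.57 and 5.54 TPM at day 1 and 14.2, 14.4 and 13.2 TPM at day 3 (1.04 ± 0.080, adjusted p = 2.55e-06). Per2 rose from 29.3 ± 3.84 to 52.7 ± 5.75 TPM (0.83 ± 0.17, adjusted p = 0.00365), Cry2 by 0.57 ± 0.085 and Bhlhe40, a repressor at E-boxes, by 0.35 ± 0.071. Per1 was at 6.85, 9.93 and 8.64 TPM at day 1 and 7.67, 9.43 and 9.64 TPM at day 3, with overlapping groups, and was not called (0.073 ± 0.13, adjusted p = 0.687). The period genes thus differed among themselves: Per2 higher, Per3 lower and Per1 without a call. The whole span of Per3 lies within Camta1 on the same strand, so reads of the 2 may be split. Bhlhe41 was below the filter, at no more than 0.05 TPM. Nr1d1, Ciart and Hlf were under 1 TPM in every day 3 library, so they passed the filter through day 1 alone.

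Of the 16 tested clock output and accessory genes 5 were higher and 6 lower, against 26.4% and 11.2% of all genes (median −0.12). The share that was higher was thus near that of all genes. The D-box activators were all lower: beside Dbp, Tef fell from 47.8 ± 6.80 to 25.9 ± 1.23 TPM (−0.85 ± 0.11, adjusted p = 1.16e-04) and Hlf from 1.997 ± 0.38 to 0.58 ± 0.24 TPM (−0.93 ± 0.16). Nfil3, the repressor at the same element, stood at 2.89, 2.18 and 2.98 TPM at day 1 and 7.80, 8.32 and 8.18 TPM at day 3 (1.31 ± 0.099, adjusted p = 2.31e-06). Of the rest, Wee1, a mitotic inhibitor kinase, rose by 0.39 ± 0.090, Leo1 by 0.53 ± 0.084 and the casein kinase genes Csnk1e and Csnk1d by 0.34 ± 0.11 and 0.16 ± 0.043, while Nampt, an enzyme of NAD synthesis, fell by 0.23 and the cell cycle inhibitor gene Cdkn1a by 0.32. Ciart is counted in this list and in the repressor list. The 5 members without a call lay between −0.36 (Usp2, adjusted p = 0.0521) and 0.042. After quantile normalization or median-of-ratios scaling 3 members of this list were higher and 9 lower, with neither casein kinase gene called. Leaving out Ctrl day 1 replicate 1 or Ctrl day 3 replicate 2 ended the call of Csnk1e, and leaving out Ctrl day 3 replicate 3 that of Csnk1d.

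**Figure D1:**
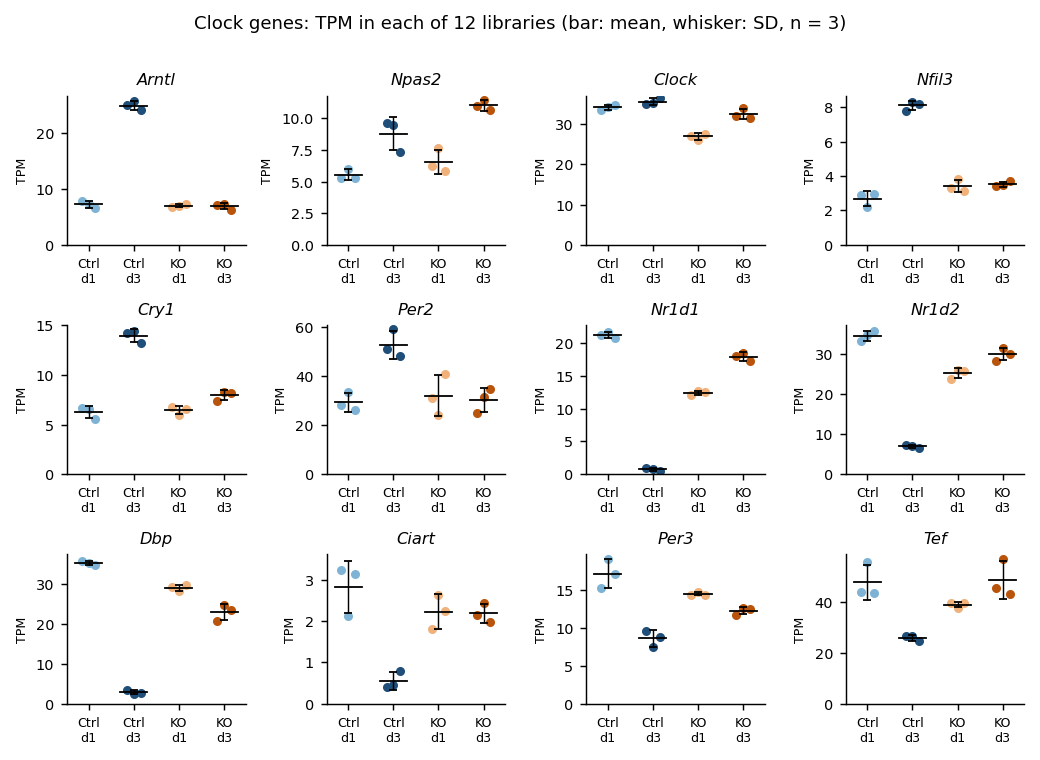
TPM (vertical axes, from 0) of 12 clock genes in each of the 12 libraries, by genotype and day, with a point for each library, a bar for the mean and a whisker for the SD (n = 3). In the control, Arntl, Nfil3 and Cry1 were high at day 3 and Nr1d1, Nr1d2, Dbp and Ciart low, with no overlap between the days.

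In Fzd5KO most of these genes changed less or the other way. Nr1d1 stood at 12.1, 12.6 and 12.5 TPM at day 1 and 18.1, 18.5 and 17.2 TPM at day 3, a rise of 0.50 (adjusted p = 6.35e-04), and the day changes of the genotypes differed by 4.18 ± 0.12 (adjusted p = 8.93e-10). Arntl changed by −0.026 (adjusted p = 0.809; difference −1.68 ± 0.10) and Nfil3 by 0.039 (adjusted p = 0.785; difference −1.27 ± 0.14). Dbp went from 29.1 to 22.99 TPM, a fall of 0.33 (adjusted p = 0.0091), with a difference of 2.91 ± 0.12. Mean levels of Arntl were 7.24 and 24.9 TPM in Ctrl at day 1 and day 3 and 7.04 and 6.90 TPM in Fzd5KO. For Nr1d2 they were 34.5 and 6.95 TPM in Ctrl and 25.2 and 30.0 TPM in Fzd5KO. Thus Ctrl day 3 was the group that stood apart for both genes. Npas2, Hlf and Bhlhe40 were called in the same direction in Fzd5KO (0.67, −1.14 and 0.40). Their differences between genotypes, 0.097 ± 0.16, −0.21 ± 0.23 and 0.044 ± 0.10, did not pass the threshold (adjusted p = 0.644, 0.477 and 0.748). Of the 9 and 16 tested members of the repressor and output lists, 7 and 13 differed in their day change between genotypes by limma's interaction contrast, against 45.0% of all genes. The sources used here give no hour of collection, and the hour and the day of a library cannot be told apart.

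Over the 12 libraries, the genes whose log2 values ran most like those of Arntl were Pllp, Lgals2, Hsp90ab1, Sycn and Gm10451 (Pearson r 0.978 to 0.986). Those most like Dbp were Clec2e, Ctsw, Nr1d2, Cd96 and Tcrg-C2 (0.977 to 0.985). These correlations describe 4 groups of 3 libraries each and carry no test.

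Genes of feeding and metabolism moved in several directions. Most genes of fatty acid synthesis were higher at day 3, those of sugar, peptide and amino acid transport mostly lower, and the fasting and cholesterol lists were divided. The counts below stand beside 26.4% of all genes higher and 11.2% lower, or 16.5% and 16.4% with quantile normalization and 12.4% and 18.2% with median-of-ratios scaling. Of 16 tested members of the fatty acid synthesis and desaturation list, targets of the SREBP1 and ChREBP factors, 15 rose and 1 fell (median 0.49), and 1 of those that rose was under 1 TPM in every day 1 library and passed the filter through day 3 alone. Scd1, the stearoyl-CoA desaturase, stood at 4.15, 5.69 and 5.36 TPM at day 1 and 20.1, 20.8 and 19.3 TPM at day 3 (1.80 ± 0.091, adjusted p = 9.58e-08). Srebf1, which encodes SREBP1, stood at 119, 134 and 120.0 TPM at day 1 and 222, 228 and 204 TPM at day 3 (0.81 ± 0.053), and the desaturases Scd2 and Fads2 rose by 0.92 ± 0.049 and 0.73 ± 0.042. The days did not overlap for any of these genes. The 1 that fell was not called when any single library other than Ctrl day 3 replicate 2 was left out. After quantile normalization or median-of-ratios scaling 11 members were higher.

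The list of fasting and PPAR alpha target genes, which holds fatty acid oxidation and ketone body enzymes, divided into 13 higher and 9 lower of 31 tested members (median 0.036), with 1 of the higher genes likewise under 1 TPM in every day 1 library. Pdk4, a kinase that shuts pyruvate out of oxidation, stood at 3.20, 3.60 and 3.00 TPM at day 1 and 9.08, 8.84 and 7.37 TPM at day 3 (1.14 ± 0.090, adjusted p = 3.43e-06). Acot1, a thioesterase gene, rose from 3.51 ± 0.48 to 9.96 ± 1.82 TPM (1.27 ± 0.18) and Angptl4, an inhibitor of lipoprotein lipase, from 7.22 ± 0.40 to 13.7 ± 1.57 TPM (0.83 ± 0.11). Acsl1 and Cpt1a, which activate fatty acids and carry them into mitochondria, rose by 0.62 ± 0.055 and 0.44 ± 0.048. The members that fell included the abundant fatty acid binding proteins of enterocytes: Fabp2 from 3499 ± 92.5 to 1844 ± 89.7 TPM (−0.92 ± 0.038) and Fabp1 from 3273 ± 65.6 to 2309 ± 51.3 TPM (−0.50 ± 0.030). The list was therefore not uniform.

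Of the cholesterol synthesis and uptake list, targets of SREBP2, 4 of 27 members rose and 7 fell (median −0.0023). The synthesis enzyme gene Msmo1 fell by 0.37. With median-of-ratios scaling 1 was higher and 13 were lower. Of the fat absorption and chylomicron list 3 of 21 rose and 12 fell (median −0.19), among them Mttp, which loads lipid onto apolipoprotein B, from 1143 ± 17.99 to 883 ± 17.8 TPM (−0.37 ± 0.030) and the lipid droplet protein gene Cidec (−0.62 ± 0.073). The count of 3 was 1 with median-of-ratios scaling or rescaling without abundant RNAs, and 5 without Ctrl day 3 replicate 3.

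Of 19 sugar and fructose handling genes, 2 rose and 14 fell (median −0.29). Slc2a7, a hexose transporter, stood at 19.4, 18.7 and 18.7 TPM at day 1 and 3.53, 3.32 and 3.46 TPM at day 3 (−2.17 ± 0.075, adjusted p = 3.97e-09), and Slc2a5, the apical fructose transporter, at 86.3, 90.5 and 79.8 TPM at day 1 and 28.6, 26.6 and 25.8 TPM at day 3 (−1.63 ± 0.056). Slc2a2, through which hexoses leave the enterocyte, fell from 229 ± 10.2 to 85.4 ± 1.05 TPM (−1.41 ± 0.036). Slc5a1, the sodium-glucose cotransporter, stood at 806, 812 and 766 TPM at day 1 and 342, 343 and 328 TPM at day 3 (−1.23 ± 0.033) and the disaccharidase gene Sis at 2108, 2105 and 2044 TPM at day 1 and 892, 875 and 865 TPM at day 3 (−1.25 ± 0.031, adjusted p = 3.86e-10). For each of these genes every library at day 3 lay below every library at day 1. The count of 2 that rose was 1 when replicate 1 or 3 of Ctrl day 1, or replicate 1 or 2 of Ctrl day 3, was left out, and with quantile or median-of-ratios scaling.

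Transporters of peptides and amino acids went the same way, with 2 of 15 higher and 13 lower (median −0.55). Slc15a1, the proton-coupled peptide transporter, stood at 494, 497 and 477 TPM at day 1 and 191, 184 and 182 TPM at day 3 (−1.39 ± 0.031, adjusted p = 2.75e-10). Slc36a1, a proton-coupled amino acid transporter, fell from 59.9 ± 4.90 to 24.0 ± 2.54 TPM (−1.29 ± 0.074), and Slc6a19, the main neutral amino acid carrier of the brush border, from 393 ± 11.5 to 173 ± 5.91 TPM (−1.18 ± 0.042). The counts of this list were 2 and 13 under every alternative run except a threshold of 1 on the log2 change.

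Bile acid genes were 2 higher and 6 lower of 9 tested (median −0.57). Abcc2, an apical export pump for conjugates, stood at 412, 433 and 401 TPM at day 1 and 108, 110.0 and 98.4 TPM at day 3 (−1.97 ± 0.045, adjusted p = 2.75e-10), and Fabp6 fell from 354 ± 14.0 to 146 ± 0.44 TPM (−1.27 ± 0.036). The basolateral exporter subunit genes Slc51a and Slc51b fell by 0.57 and 0.65. Fgf15, the hormone that the bile acid receptor induces in the gut, was low in both groups, at 1.96, 2.24 and 2.47 TPM at day 1 and 4.08, 3.96 and 3.97 TPM at day 3, and rose (0.64 ± 0.073, adjusted p = 5.60e-05).

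Of 10 tested gut hormone genes 6 rose and none fell, against 26.4% and 11.2% of all genes (median 0.60). Gcg, the proglucagon gene, stood at 25.2, 26.98 and 22.6 TPM at day 1 and 46.7, 46.1 and 41.2 TPM at day 3 (0.82 ± 0.078, adjusted p = 1.51e-05), and Gip, the incretin gene, at 108, 107 and 95.3 TPM at day 1 and 157, 169 and 178 TPM at day 3 (0.69 ± 0.058). Ghrl (ghrelin) rose by 0.74 ± 0.13 and Cck (cholecystokinin) by 0.64 ± 0.13. With quantile normalization or median-of-ratios scaling 5 were higher and 1 lower. Of 17 targets of ATF4, the factor of amino acid starvation, 3 rose and 2 fell (median −0.025). Trib3 fell from 3.55 ± 0.75 to 1.25 ± 0.25 TPM (−1.01 ± 0.14) and Ddit4, an inhibitor of mTORC1 signalling, rose from 6.12 ± 1.03 to 12.3 ± 0.65 TPM (0.91 ± 0.11). The count of 3 was 1 when replicate 3 of Ctrl day 1, replicate 1 or 2 of Ctrl day 3 or any 1 of the Fzd5KO day 1 libraries was left out, with no filter, with quantile or median-of-ratios scaling, and in a fit of the 6 control libraries alone.

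**Figure D2:**
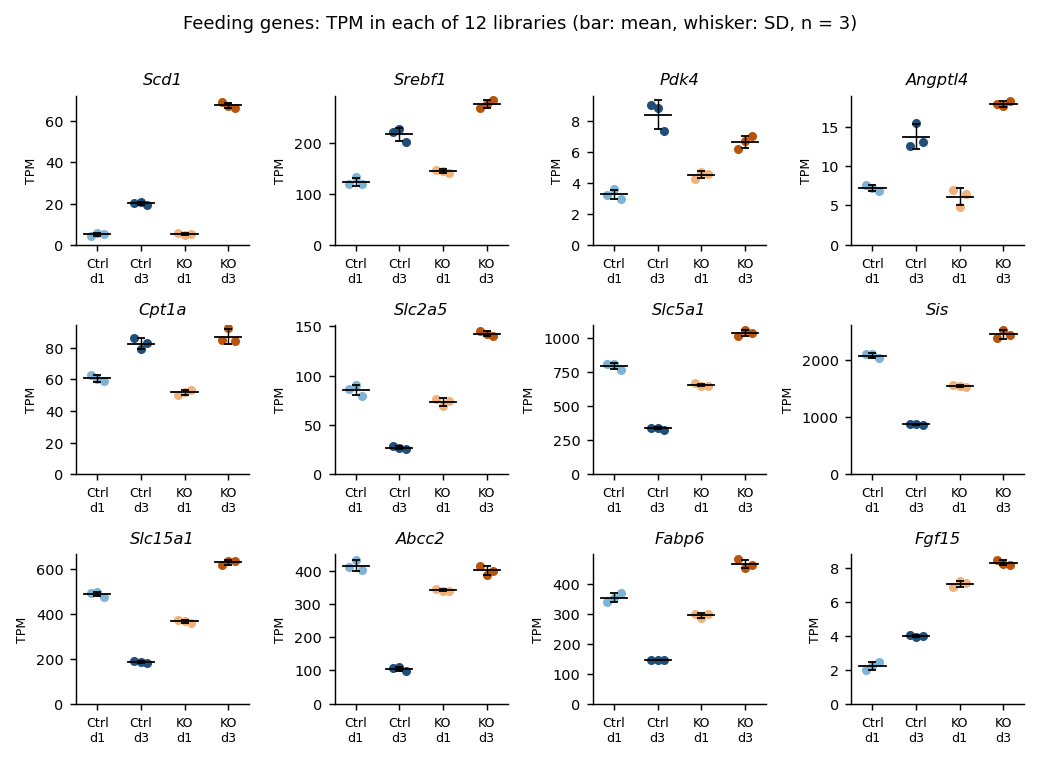
TPM (vertical axes, from 0) of 12 feeding genes in each of the 12 libraries, with a point for each library, a bar for the mean and a whisker for the SD (n = 3). Sugar and peptide transporter genes were low in Ctrl day 3 and high in Fzd5KO day 3, while Scd1 and Srebf1 were higher at day 3 than at day 1 in both genotypes.

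The lipid synthesis genes Scd1, Scd2 and Srebf1 rose in Fzd5KO too (by 3.45, 1.06 and 0.93), and the day changes of Scd2 and Srebf1 did not differ between genotypes past the threshold (differences 0.14 ± 0.069 and 0.12 ± 0.075, adjusted p = 0.117 and 0.211). Pdk4, Angptl4 and Cpt1a also rose there (by 0.47, 1.42 and 0.74). Transporter genes rose in Fzd5KO instead: Slc2a5 went from 73.2 to 143 TPM, Slc5a1 from 656 to 1039 TPM and Slc15a1 from 367 to 631 TPM. Of the sugar, peptide and amino acid, and bile acid lists, 16 of 19, 15 of 15 and 9 of 9 members were called higher in Fzd5KO, against 34.6% of all genes higher and 11.0% lower there. By the interaction contrast 17, 14 and 8 of them differed between genotypes, beside the 45.0% of all genes.

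Stem cell genes of the crypt were higher at day 3, while Paneth cell genes, described below, were mostly lower. Of 25 stem cell genes 17 rose and none fell, against 26.4% and 11.2% of all genes (median 0.36, against 0.12 for all genes). In bulk libraries, fewer or more cells of a type and less or more RNA per cell cannot be told apart. Olfm4, a secreted glycoprotein of crypt-base cells, stood at 288, 289 and 276 TPM at day 1 and 457, 447 and 433 TPM at day 3 (0.65 ± 0.041, adjusted p = 5.91e-07). Gkn3, another crypt-base gene, stood at 1.02, 1.46 and 1.40 TPM at day 1 and 5.43, 6.10 and 4.01 TPM at day 3 (1.42 ± 0.17), and Prom1 rose from 46.4 ± 4.68 to 88.3 ± 3.55 TPM (0.92 ± 0.080). Slc12a2, an ion cotransporter of crypt cells, rose by 0.54 ± 0.047, and Ascl2, the stem cell transcription factor, by 0.54 ± 0.12. Lgr5, the R-spondin receptor that defines these stem cells, stood at 4.61, 4.57 and 3.74 TPM at day 1 and 5.65, 5.75 and 5.27 TPM at day 3, with no overlap, but missed the threshold (0.31 ± 0.12, adjusted p = 0.0726). Every one of the 25 had a change above 0. Summed over the list, TPM lay between 888 and 935 at day 1 and between 1234 and 1317 at day 3, for which the smallest two-sided p an exact permutation test can give is 0.1. With median-of-ratios scaling 14 were higher, and without Ctrl day 1 replicate 1, 16.

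Of 16 Wnt target genes 7 rose and none fell (median 0.28). Many of these genes, Axin2, Lgr5 and Ascl2 among them, are counted in the stem cell list too, so the counts of these lists are not separate results. Axin2, a scaffold of the beta-catenin destruction complex and itself a Wnt target, rose from 36.5 ± 0.61 to 48.6 ± 4.21 TPM (0.40 ± 0.082, adjusted p = 0.00295). Of 12 Frizzled and Wnt receptor genes 4 rose, Fzd5 among them, and none fell (median 0.17), near the 26.4% and the median of 0.12 of all genes, and with median-of-ratios scaling 2 rose. Of 11 Notch pathway genes 6 rose and none fell (median 0.39). The ligand gene Jag1 stood at 8.56, 8.69 and 8.87 TPM at day 1 and 13.5, 14.5 and 14.0 TPM at day 3 (0.63 ± 0.073), and Lfng, which modifies Notch receptors, rose by 0.68 ± 0.095 and the receptor gene Notch2 by 0.39 ± 0.070.

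Genes of dividing cells were higher as well. Of 30 G2 and M phase genes 24 rose and none fell (median 0.36), and of 30 S phase genes 13 rose and none fell (median 0.23), against 26.4% of all genes higher and 11.2% lower. Mki67, which encodes the proliferation antigen Ki-67, stood at 51.9, 53.4 and 54.4 TPM at day 1 and 76.1, 71.2 and 68.5 TPM at day 3 (0.43 ± 0.047, adjusted p = 4.08e-05). Top2a, a topoisomerase of mitosis, rose by 0.34 ± 0.047 and the spindle protein gene Nusap1 by 0.59 ± 0.16. Of the replication genes, Mcm7 rose by 0.39 ± 0.049, Pcna by 0.31 ± 0.040 and the cyclin gene Ccne2 by 0.61 ± 0.13. The changes were small beside those of the clock genes, and with median-of-ratios scaling 8 S phase and 20 G2 and M phase genes were higher, against 12.4% of all genes. Nusap1 was not called without Ctrl day 3 replicate 1.

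Secretory lineages differed from each other, with counts that stand beside 26.4% of all genes higher and 11.2% lower. Tuft cell genes were 11 higher and none lower of 20 tested (median 0.46), with 1 of the 11 under 1 TPM in every day 1 library and 7 higher with a filter of at least 5 TPM, which tests fewer genes. Dclk1, the marker kinase of tuft cells, stood at 6.42, 7.19 and 5.37 TPM at day 1 and 12.9, 14.9 and 14.7 TPM at day 3 (1.06 ± 0.19, adjusted p = 0.0012). Rgs13 and Alox5ap, the latter an activator of leukotriene synthesis, rose by 0.78 ± 0.13 and 0.79 ± 0.13. Of 16 enteroendocrine cell genes 8 rose and none fell (median 0.37), with the granule protein genes Chga at 50.8, 56.5 and 50.7 TPM at day 1 and 91.1, 90.5 and 90.1 TPM at day 3 (0.77 ± 0.050) and Chgb higher by 0.59 ± 0.049. That count of 8 was 4 without Ctrl day 1 replicate 3, 5 without Ctrl day 3 replicate 2, 4 with no filter, and 5 with a stricter filter, quantile normalization or median-of-ratios scaling.

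Goblet cell genes were mixed, with 9 of 22 higher and 3 lower (median 0.12, near that of all genes). Muc2, the main gel-forming mucin, stood at 2612, 2630.3 and 2463 TPM at day 1 and 2027, 2057 and 1887 TPM at day 3 (−0.37 ± 0.046, adjusted p = 1.05e-04) but was not called with quantile normalization. Clca1, a secreted mucus protein, fell from 352 ± 26.1 to 252 ± 7.87 TPM (−0.48 ± 0.051). Rep15, another gene of the goblet list, rose by 0.54 ± 0.068. The 3 lower were 7 with median-of-ratios scaling, 6 after rescaling without abundant RNAs and 5 without Ctrl day 1 replicate 3. Paneth cell genes were mostly lower, with 13 of 22 lower and 2 higher (median −0.24), the latter 1 when replicate 2 or 3 of Ctrl day 1, or replicate 1 or 2 of Ctrl day 3, was left out. The defensin genes Defa23 and Defa5 went from 3929 ± 459 to 2274 ± 571 TPM (−0.82 ± 0.15) and from 779 ± 15.2 to 603 ± 17.6 TPM (−0.37 ± 0.053). Defensin genes are near-identical copies that may share reads, and their single values are uncertain. Lyz1, the Paneth cell lysozyme, stood at 3134, 3146 and 2899.9 TPM at day 1 and 2880.0, 2834 and 2759 TPM at day 3, a small fall (−0.11 ± 0.041, adjusted p = 0.0446) that turned to a rise of 0.26 after quantile normalization (adjusted p = 0.0034) and was not called without Ctrl day 1 replicate 1 or 2 or any 1 Ctrl day 3 library. Spink4, counted in both the goblet and the Paneth list, rose by 0.33 ± 0.054.

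Villus genes were mostly lower, save those of the villus bottom, beside 26.4% of all genes higher and 11.2% lower. Of 25 enterocyte transcription factor and brush border genes 4 rose and 18 fell (median −0.30). Anpep, an aminopeptidase of the brush border, fell from 2399 ± 79.7 to 1453 ± 49.3 TPM (−0.72 ± 0.038), Vil1, which bundles microvillar actin, from 970.4 ± 19.6 to 658 ± 15.9 TPM (−0.56 ± 0.032), and Dpp4, a peptidase, from 394 ± 15.6 to 251 ± 19.1 TPM (−0.65 ± 0.051). Of 14 villus tip genes 3 rose and 10 fell (median −0.39), with Pmp22 at 130.4, 133 and 125 TPM at day 1 and 55.9, 53.4 and 50.8 TPM at day 3 (−1.26 ± 0.042, adjusted p = 2.76e-09), Ada, which deaminates adenosine, at −0.73, and the transcription factor genes Fos and Klf4 at −0.56 and −0.45. The abundant Apoa4 of the same list went up, from 4174, 4098 and 3884 TPM at day 1 to 4693, 4683 and 4379 TPM at day 3. Summed TPM of the villus tip list overlapped between the days, at 5648 to 6004 at day 1 and 5869 to 6291 at day 3. Of 11 villus bottom genes 8 rose and 3 fell (median 0.64). Most of these, Reg3b, Reg3g, Dmbt1, Nlrp6 and Il18 among them, are counted again with the mucosal defence genes below, so the counts of these lists are not separate results. Gsdmc2 and Gsdmc4, gasdermin genes of enterocytes, went from 10.8 ± 0.37 to 30.5 ± 1.12 TPM (1.41 ± 0.069) and from 10.6 ± 0.64 to 32.5 ± 1.78 TPM (1.53 ± 0.062), and Gsdmc3, outside the list, rose by 1.55 ± 0.074. These copies are alike in sequence and their single values are uncertain.

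**Figure D3:**
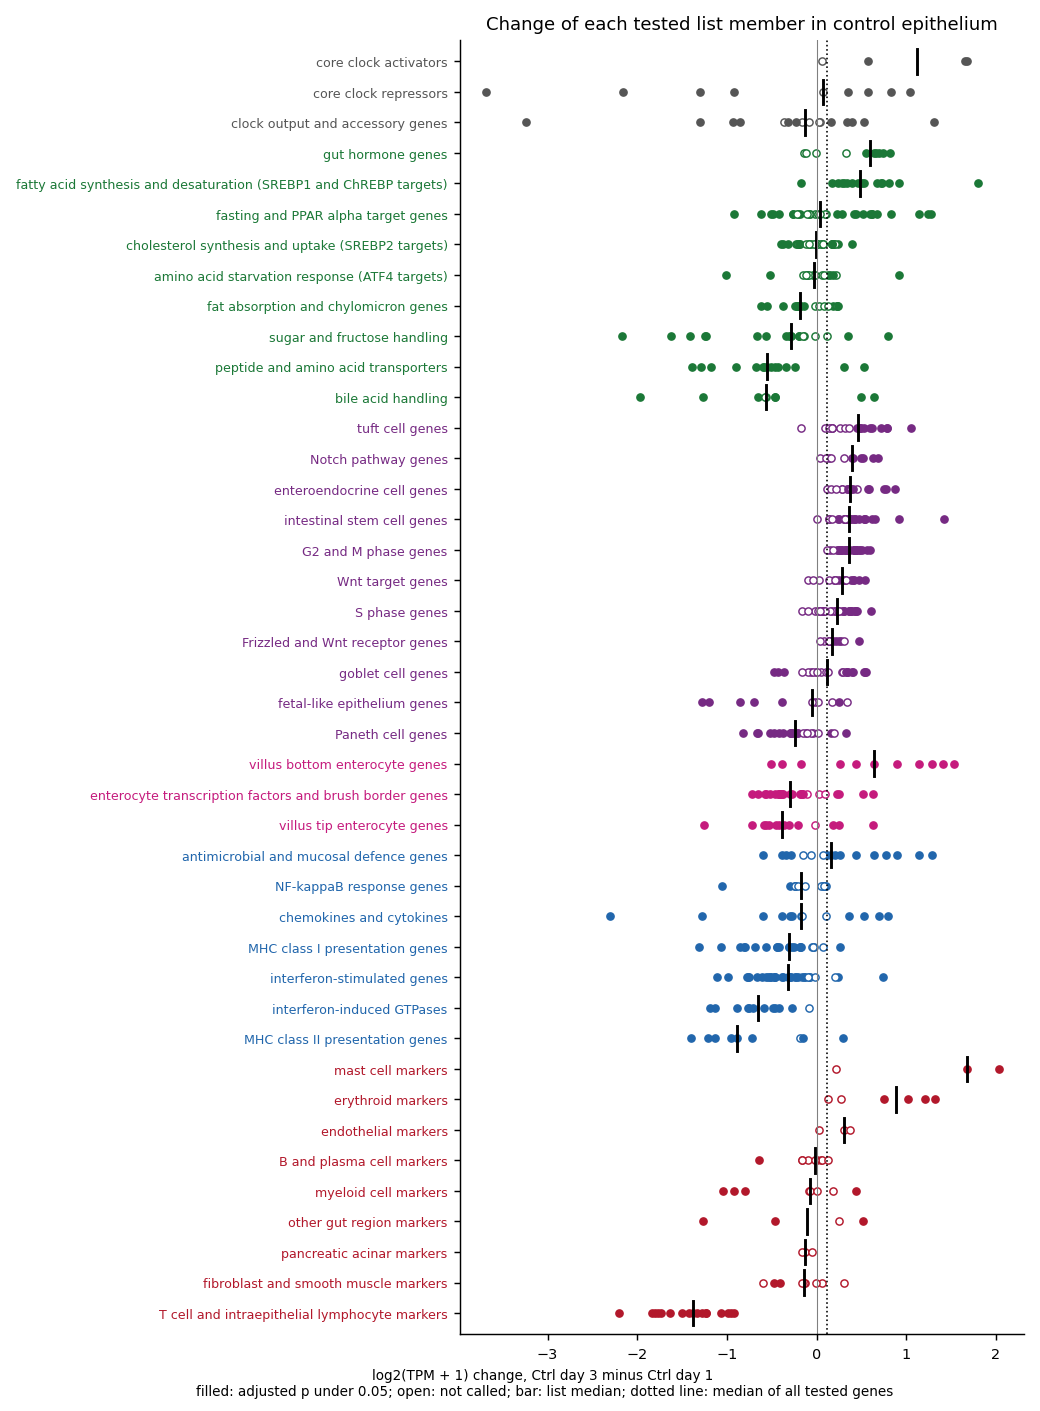
Change of every tested member of the clock, feeding, crypt, villus, immune and other cell type lists in the control (horizontal axis, log2(TPM + 1), day 3 minus day 1), with filled points for called genes, open points for genes not called, a bar for each list's median and a dotted line at the median of all tested genes (0.12). Every tested T cell marker lies below 0, while stem cell and G2 and M phase genes lie above 0.

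In Fzd5KO the stem cell, cell division and tuft cell lists went the other way, while Paneth cell genes were lower there too, with 20 of 22 lower and 1 higher (median −1.42). Of 25 stem cell genes 14 were lower and 3 higher there (median −0.30), of 30 G2 and M phase genes 23 were lower and 1 higher, and of 20 tuft cell genes 12 were lower and none higher. The counts of called genes in this paragraph stand beside 34.6% of all genes higher and 11.0% lower in Fzd5KO. Olfm4 went from 45.8 to 24.5 TPM (difference of the day changes −1.52 ± 0.058, adjusted p = 4.14e-09) and Dclk1 from 6.12 to 2.003 TPM (−2.34 ± 0.26). In the interaction contrast 19 of 25 stem cell, 28 of 30 G2 and M phase and 15 of 20 tuft cell genes had a lower day change in Fzd5KO than in the control, against 19.9% of all genes. Of the 25 brush border and transcription factor genes 23 rose in Fzd5KO. Of the 11 villus bottom genes 9 rose in Fzd5KO, among them Gsdmc2 and Gsdmc4 (1.06 and 1.13), which rose in both genotypes.

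Immune genes of epithelium were divided between the listed mucosal defence genes, more of which rose than fell, and antigen presentation and interferon genes, which were mostly lower. Defensin genes and Lyz1 are counted in the Paneth cell list above, which was mostly lower. The counts below stand beside 26.4% of all genes higher and 11.2% lower. Of 17 tested antimicrobial and mucosal defence genes 10 rose and 4 fell (median 0.16, near the 0.12 of all genes). Many of them are also counted in the villus bottom list above. Reg3b, a secreted lectin active against bacteria, stood at 439, 428 and 382 TPM at day 1 and 932, 946 and 878 TPM at day 3 (1.14 ± 0.050, adjusted p = 3.14e-08), and its relative Reg3g at 474, 469 and 431 TPM at day 1 and 702, 747 and 698 TPM at day 3 (0.64 ± 0.046). Dmbt1, a scavenger protein of mucus, stood at 389, 382 and 363 TPM at day 1 and 946, 936 and 898 TPM at day 3 (1.29 ± 0.041, adjusted p = 2.06e-09). Duox2, an oxidase that makes hydrogen peroxide at the mucosal surface, rose from 20.1 ± 1.83 to 35.1 ± 1.09 TPM (0.78 ± 0.059). Nlrp6, an inflammasome sensor, rose by 0.26 ± 0.034, and Il18, the cytokine matured by inflammasomes, fell by 0.38.

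Of 9 tested MHC class II presentation genes 7 fell and 1 rose (median −0.88). H2-Ab1, a class II chain, stood at 173, 166 and 156 TPM at day 1 and 60.9, 64.7 and 59.4 TPM at day 3 (−1.41 ± 0.045, adjusted p = 1.92e-09). The other chains H2-Aa and H2-Eb1 went from 86.3 ± 7.73 to 36.6 ± 0.48 TPM (−1.21 ± 0.061) and from 65.8 ± 3.24 to 29.5 ± 3.32 TPM (−1.14 ± 0.077), and the invariant chain gene Cd74 from 208 ± 18.1 to 107 ± 1.29 TPM (−0.95 ± 0.057). Of 22 class I presentation genes 17 fell and 1 rose (median −0.31), a rise that was lost without Ctrl day 1 replicate 1 or 3 and with median-of-ratios scaling. Nlrc5, the transactivator of class I genes, fell from 8.88 ± 1.76 to 3.03 ± 1.07 TPM (−1.31 ± 0.17). Psmb8, an immunoproteasome subunit, fell by 0.80, the peptide transporter gene Tap1 by 0.69 and the non-classical class I gene H2-T23 by 0.44.

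Of 33 interferon-stimulated genes 23 fell and 2 rose (median −0.32), and of 12 interferon-induced GTPase genes 11 fell and none rose (median −0.65, with 4 of the 12 under 1 TPM in every day 3 library, and 4 lower with a filter of at least 5 TPM, which tests fewer genes). Oas1g, of the family of oligoadenylate synthetases, stood at 23.5, 22.4 and 24.3 TPM at day 1 and 8.27, 10.7 and 12.2 TPM at day 3 (−1.12 ± 0.099, adjusted p = 8.79e-06), Oas3 fell by 0.99 and Oasl2 by 0.61. GTPase genes were represented by Igtp and Irgm2, whose annotated spans overlap on the same strand. Igtp went from 19.7 ± 0.50 to 8.47 ± 0.91 TPM (−1.13 ± 0.067), and Irgm2 changed by −0.77 ± 0.088. The 2 that rose were Ifit1 (0.24 ± 0.065, adjusted p = 0.0138) and Ifit1bl1 (0.74 ± 0.055), and Ifit1 was not called with quantile or median-of-ratios scaling. Of 12 NF-kappaB response genes 3 fell and none rose by limma, a count of falls that was 7 with median-of-ratios scaling, 5 with quantile normalization and 5 without Ctrl day 3 replicate 1, while 1 rose without Ctrl day 3 replicate 3. Of the 3 that fell, 1 was under 1 TPM in every day 3 library. Outside the NF-kappaB list, Socs3, an inhibitor of cytokine signalling counted among the immediate early genes, also fell. It stood at 11.6, 16.2 and 14.9 TPM at day 1 and 5.48, 4.88 and 4.62 TPM at day 3 (−1.34 ± 0.11, adjusted p = 4.16e-06).

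Of 13 tested chemokines and cytokines 4 rose, near the 26.4% of all genes, and 7 fell, against 11.2% (median −0.17). Ccl5, a chemokine that T cells themselves express, stood at 32.3, 36.3 and 33.7 TPM at day 1 and 4.14, 6.68 and 7.97 TPM at day 3 (−2.31 ± 0.16, adjusted p = 1.34e-06), and the alarmin gene Il33 at 11.6, 12.7 and 12.4 TPM at day 1 and 4.5, 4.28 and 4.59 TPM at day 3 (−1.28 ± 0.074). Ccl28, a chemokine of mucosal epithelia, rose from 8.88 ± 0.83 to 16.1 ± 0.19 TPM (0.80 ± 0.073) and Tnfsf13b, the B cell factor BAFF, from 4.16 ± 0.34 to 7.35 ± 1.04 TPM (0.69 ± 0.094).

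Markers of intraepithelial lymphocytes moved with these immune genes. Of 22 listed T cell markers 17 passed the filter, and each of the 17 was lower, against 11.2% of all genes (median −1.38). The summed TPM of the 22 lay between 227 and 251 at day 1 and between 58.2 and 63.0 at day 3. Gzma, a granzyme of cytotoxic cells, stood at 99.7, 109 and 109 TPM at day 1 and 23.9, 21.1 and 21.9 TPM at day 3 (−2.20 ± 0.070, adjusted p = 1.92e-09), and Gzmb at 22.5, 24.9 and 23.9 TPM at day 1 and 5.01, 6.27 and 6.68 TPM at day 3 (−1.83 ± 0.10). Cd3g, of the T cell receptor complex, stood at 12.9, 14.7 and 12.8 TPM at day 1 and 3.09, 2.91 and 3.44 TPM at day 3 (−1.80 ± 0.094). Among defining markers, Cd3e, Cd8a and Trdc fell by 0.96, 1.38 and 0.99, Cd7 by 1.74 and the receptor gene Klrd1 by 1.76. Of the 17, 2 were under 1 TPM in every day 3 library and so passed through day 1 alone. None of the markers named was at 0, and the part of lymphocyte RNA in the falls of Ccl5, MHC and interferon genes was not tested. With a filter of at least 5 TPM, which tests fewer genes, 10 markers were called lower.

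Markers of further cell types were examined in the same way. Of 12 mast cell markers 3 passed the filter. The mucosal mast cell protease genes Mcpt1 and Mcpt2 stood at 1.46, 1.46 and 1.55 TPM at day 1 and 10.2, 7.71 and 9.77 TPM at day 3 (2.03 ± 0.10, adjusted p = 9.00e-08) and at 0.66, 0.62 and 0.66 TPM at day 1 and 4.07, 3.88 and 4.84 TPM at day 3 (1.67 ± 0.11), while Cpa3, a defining marker below the filter, was at 0.11, 0.11 and 0.16 TPM at day 1 and 0.33, 0.21 and 0.22 TPM at day 3, also without overlap. Mcpt2 was under 1 TPM in every day 1 library and passed the filter through day 3 alone. Summed TPM of the list was 7.75 to 9.39 at day 1 and 19.7 to 22.8 at day 3. Of 6 tested erythroid markers 4 rose and none fell: Hba-a1 went from 18.7 ± 0.74 to 48.5 ± 4.49 TPM (1.33 ± 0.11) and Hbb-bs stood at 39.4, 43.8 and 30.9 TPM at day 1 and 88.1, 92.3 and 85.0 TPM at day 3 (1.21 ± 0.11), and the sum went from 90.8 to 111 TPM at day 1 to 203 to 230 at day 3. Haemoglobin genes come in near-identical pairs whose single values are uncertain. Of 9 tested B and plasma cell markers 1 fell, of 8 myeloid markers 1 rose and 3 fell, and of 9 fibroblast and smooth muscle markers 2 fell. Of all genes 26.4% rose and 11.2% fell, and the share of B and plasma cell markers that fell was near the latter. The 3 tested endothelial markers changed by 0.026 to 0.37 without a call. Summed TPM overlapped between the days for the B cell, fibroblast and endothelial lists. The myeloid sum did not overlap, at 25.5 to 29.9 TPM at day 1 and 20.1 to 21.9 at day 3, and so was lower beside the MHC class II genes. Sox10 of glia was listed at 0 in all 6 libraries. The part of these cells in the other changes was not tested.

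**Figure D4:**
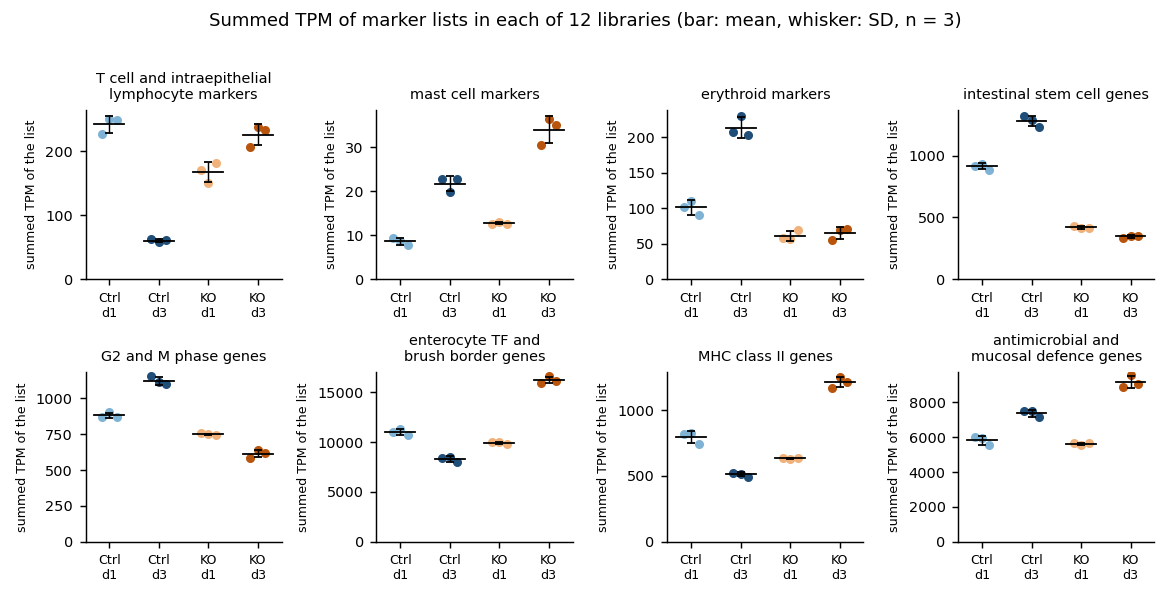
Summed TPM of 8 lists (vertical axes, from 0) in each of the 12 libraries, with a point for each library, a bar for the mean and a whisker for the SD (n = 3). The T cell sum is lowest in Ctrl day 3, at 58.2 to 63.0 TPM, and the stem cell and G2 and M phase sums are highest there.

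In Fzd5KO, most antigen presentation and interferon genes rose from day 1 to day 3. All 33 interferon-stimulated genes and all 22 class I genes tested were called higher there (medians 1.35 and 0.77), and 8 of 9 class II genes. In the interaction contrast 33 of 33, 20 of 22 and 8 of 9 had a higher day change in Fzd5KO than in the control, against 25.1% of all genes. T cell markers were 6 higher and 1 lower of 17 in Fzd5KO (median 0.12), near the 34.6% higher and 11.0% lower of all genes there. Gzma went from 65.4 to 95.2 TPM in Fzd5KO. Mcpt1 and Mcpt2 rose in both genotypes, by 1.64 and 1.68 in Fzd5KO. The haemoglobin genes Hba-a1 and Hbb-bs were not called in Fzd5KO (0.20 and 0.067, adjusted p = 0.176 and 0.653), and their day changes differed between genotypes by −1.12 ± 0.16 and −1.14 ± 0.15.

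Several of the largest changes lay outside the groups above. Ces1d, a carboxylesterase gene, stood at 12.7, 16.0 and 14.5 TPM at day 1 and 60.3, 59.8 and 60.5 TPM at day 3 (1.99 ± 0.15, adjusted p = 2.24e-06), and its neighbour in the family Ces1g rose from 2.78 ± 0.10 to 9.24 ± 0.63 TPM (1.44 ± 0.086). These are members of a cluster of similar genes. Paqr7, a membrane progestin receptor gene, stood at 10.2, 9.33 and 10.2 TPM at day 1 and 32.7, 32.7 and 29.6 TPM at day 3 (1.58 ± 0.064). Omp rose from 0.81 ± 0.25 to 5.52 ± 0.13 TPM (1.86 ± 0.11), but its whole span lies within Capn5 on the same strand, so reads of the 2 may be split. Tmem254c, one of several near-identical copies, was called higher (1.43 ± 0.45, adjusted p = 0.0267), but not when Ctrl day 1 replicate 3 or either of Ctrl day 3 replicates 2 and 3 was left out.

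Falls outside the groups above included transport genes. Aspa, which cleaves N-acetylaspartate, stood at 107, 115 and 115 TPM at day 1 and 24.3, 25.8 and 21.5 TPM at day 3 (−2.19 ± 0.061, adjusted p = 7.81e-10). Aqp3, a channel for water and glycerol, fell from 22.8 ± 2.45 to 5.45 ± 1.15 TPM (−1.89 ± 0.12). Slc5a4a, a relative of the sodium-glucose cotransporter, stood at 44.7, 45.7 and 44.1 TPM at day 1 and 11.3, 11.6 and 11.1 TPM at day 3 (−1.89 ± 0.045), and Slc5a12, a carrier of lactate and other monocarboxylates, at 100.0, 109.6 and 99.5 TPM at day 1 and 27.4, 27.6 and 28.7 TPM at day 3 (−1.85 ± 0.042). In each of these genes every day 3 library lay below every day 1 library.

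The 2 genotypes' day changes share no library, and they were set side by side over all 13918 genes. Of the 5222 genes called in the control, 1134 were also called in Fzd5KO in the same direction (21.7% of the control's list and 17.9% of the 6336 called in Fzd5KO) and 1981 in the opposite direction (37.9% and 31.3%). Of the genes that rose in the control, 1047 rose and 814 fell in Fzd5KO, and of those that fell, 87 fell and 1167 rose. The remaining 2107 were not called in Fzd5KO. The count of 1134 was 540 after quantile normalization, 522 with median-of-ratios scaling and 674 after rescaling without abundant RNAs. Across genes, which are not independent replicates, the changes had a Pearson correlation of −0.25, given as a description. The day change differed between genotypes for 6260 genes, 45.0% of those tested, and for 3678 of the 5222 called in the control.

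**Figure D5:**
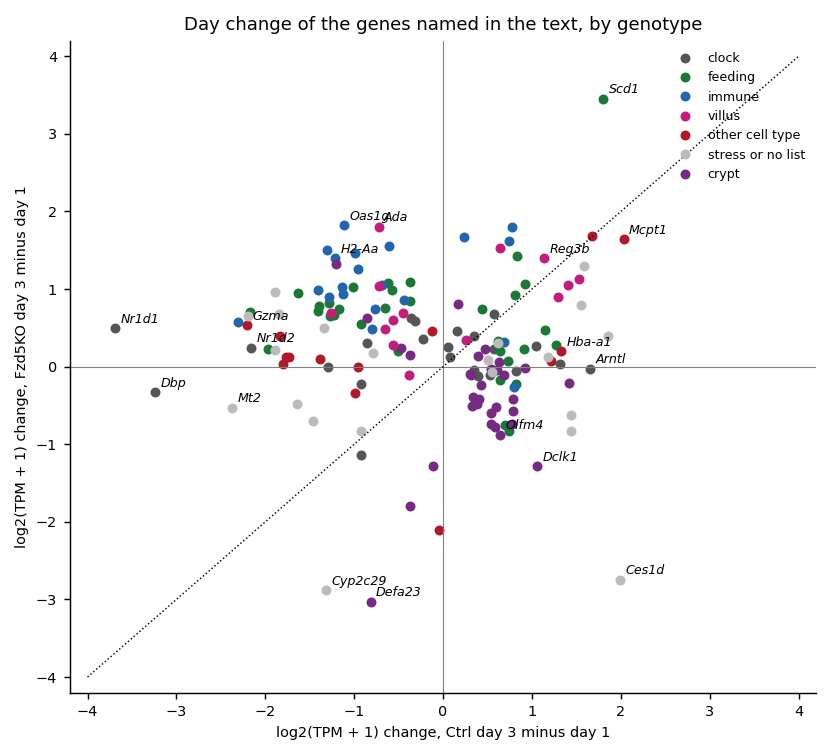
Day 3 minus day 1 change of each gene named in the text, on the log2(TPM + 1) scale, in the control (horizontal axis) and in Fzd5KO (vertical axis), coloured by the theme of its first list; the dotted line marks equal changes. Nr1d1 and Dbp lie far to the left near the horizontal zero line, Scd1, Mcpt1 and Reg3b rose in both genotypes, and Ces1d rose in the control and fell in Fzd5KO.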

How the data were processed

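Intestinal epithelial cells of mouse jejunum were profiled by total-RNA sequencing (RNeasy Mini and TruSeq Stranded Total RNA kits, per the labels). RSEM, STAR 2.7.3a, bcl2fastq 2.18 and the build mm10 are listed in the submitters' processing notes, and the authors deposited 1 table of TPM values. The sources used here name no annotation and no strand setting, and overlapping and antisense genes may share reads. The depth is unknown, since TPM keeps none.

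TPM columns were assigned by name to 12 libraries, 3 per group. Of 55421 genes, those with at least 1 TPM in at least 3 of the 6 Ctrl libraries (13918) were tested with limma 3.58.1 (R 4.3.3) on log2(TPM + 1), with 4 group means, all 12 libraries sharing the spread, an intensity trend and Benjamini-Hochberg adjustment over all tested genes (called under 0.05). The interaction contrast is the Fzd5KO change minus the Ctrl change. Each list was described by counts and medians, with no list test. Named genes are those with the 15 largest rises and 15 largest falls at 5 TPM or more, the clock lists, up to 4 called members of each other list by p and up to 2 by size, and genes fixed by name; Cd3e, Cd8a and Trdc are defining markers, Clps and Cela1 were added after their values were seen, and a few genes the rule names are not reported here. The lists and members were chosen with earlier results of these data known. Coordinates are from GENCODE M21, where 55240 genes matched, and promoters from RefSeq. Alternatives covered pseudocount, filter, scaling, trend, library weights, replicate block, a fit of the 6 Ctrl libraries alone and leaving out each library. The script was tested on simulated data. Same-numbered Ctrl libraries deviated together by a correlation of −0.011 to 0.026, and differently numbered ones by −0.028 to 0.037. Deviations from means of 3 libraries cannot tell whether the numbers pair the libraries, and the main fit used no pairing. Of the 157 genes named, 65 overlap another annotated gene.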

Additional observations from a re-analysis of the deposited data

Results flagged for a closer look

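The day change differed between the control and Fzd5KO for 6260 of the 13918 genes by limma's interaction contrast. Among the 157 genes named in the text, 14 were called in both genotypes in opposite directions with day changes at least 2.5 apart on the log2(TPM + 1) scale. The differences below are the Fzd5KO change minus the Ctrl change.

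The largest was that of the carboxylesterase gene Ces1d, at −4.74: it went from 14.4 to 60.2 TPM in the control and from 13.6 to 1.18 TPM in Fzd5KO. The others had falls in the control and rises in Fzd5KO. The clock repressor gene Nr1d1 differed by 4.18. Among transport genes, the hexose transporter genes Slc2a7 and Slc2a5 differed by 2.87 and 2.58, the water and glycerol channel gene Aqp3 by 2.86 and the monocarboxylate carrier gene Slc5a12 by 2.53. Among immune genes the differences were 2.61 for H2-Aa, 2.81 for Nlrc5, 2.94 for Oas1g, 2.89 for Ccl5 and 2.74 for Gzma. The growth factor gene Areg differed by 2.52, the adenosine deaminase gene Ada by 2.53 and Aspa by 2.84. T cell marker sums, which include Gzma itself, lay at 58.2 to 63.0 TPM in Ctrl day 3 and at 207 to 239 TPM in Fzd5KO day 3. The part of T cell RNA in these differences was not tested.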

How the results depend on the processing

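In the control 3669 genes were called higher and 1553 lower. Calls made anew with quantile normalization were 2291 and 2288, with median-of-ratios scaling 1728 and 2532, and with a threshold of 1 on the log2 change 74 and 133. That threshold left 1037 genes with a different day change between genotypes and 11 called in the same direction in both. The latter count, 1134, was 540 with quantile normalization, 522 with median-of-ratios scaling and 674 after rescaling without abundant RNAs. Leaving out each library in turn gave 2645 to 3678 higher, 1300 to 1549 lower, 5807 to 6077 different between genotypes and 858 to 1189 called in the same direction. A replicate block gave 3556 higher, 1531 lower, 6191 and 1115, and lost the call of Lyz1 alone among the named genes. A fit of the 6 Ctrl libraries alone, which takes no spread from Fzd5KO, gave 3101 higher and 1287 lower. Among the named genes it lost the calls of Csnk1e and Lyz1. Per1 (not called) turned to −0.069 with quantile normalization, −0.047 with median-of-ratios scaling and −0.056 without Ctrl day 1 replicate 1 (to 0.18 without Ctrl day 1 replicate 2, its highest), Clock (not called) to −0.022 and −0.075 with these scalings, and Lyz1 to 0.26 with quantile normalization; the cause was not tested. Among the 157 named genes, Ascl2 lost its call at a pseudocount of 0.1, Muc2 with quantile normalization, and Ifit1 with both scalings. Lgr5 gained one at a pseudocount of 5 or without Fzd5KO day 3 replicate 2, and Usp2 in 7 alternatives. Without single libraries Clps (not called) lay between −0.16 and 0.022 and Cela1 (not called) between −0.38 and 0.065. The depth is unknown, so low genes carry an unstated counting error.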

Other observations

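Stress and detoxification genes also changed in the control. Of 16 tested heat shock chaperone genes 13 rose, 1 of them under 1 TPM in every day 1 library, and 1 fell (median 0.48, against 0.12 for all genes; 26.4% of all genes were higher and 11.2% lower). The inducible chaperone gene Hspa1b stood at 1.81, 2.84 and 1.95 TPM at day 1 and 7.01, 6.4 and 5.28 TPM at day 3 (1.18 ± 0.14, adjusted p = 8.08e-05, limma). The abundant Hsp90ab1 and its cochaperone gene Stip1 rose by 0.50 ± 0.038 and 0.55 ± 0.052. In Fzd5KO 2 members of this list rose and 6 fell, and the day change of 12 was lower there than in the control. Of 8 metallothionein and zinc transporter genes 2 rose and 3 fell. The metal-binding metallothionein gene Mt2 stood at 76.9, 75.8 and 72.8 TPM at day 1 and 12.4, 15.7 and 13.2 TPM at day 3 (−2.37 ± 0.13, adjusted p = 1.67e-07), and Mt1 went from 232 ± 15.5 to 83.5 ± 3.98 TPM (−1.46 ± 0.055). Both also count among 13 glucocorticoid targets, of which 4 rose and 3 fell. Tsc22d3, another glucocorticoid target, rose from 23.8 ± 1.24 to 36.9 ± 1.31 TPM (0.62 ± 0.053), so the genes of that list went opposite ways.

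Of 18 xenobiotic response genes 3 rose and 11 fell (median −0.24), the 3 that rose being 1 with median-of-ratios scaling. These counts and those that follow stand beside 26.4% of all genes higher and 11.2% lower. The shares were 16.5% and 16.4% with quantile normalization and 12.4% and 18.2% with median-of-ratios scaling. The cytochrome P450 gene Cyp2c55 stood at 46.4, 45.7 and 46.2 TPM at day 1 and 13.9, 14.4 and 13.9 TPM at day 3 (−1.64 ± 0.063) and Cyp2c29 went from 27.9 ± 0.85 to 10.6 ± 0.41 TPM (−1.31 ± 0.064). The glutathione transferase genes Gstm1 and Gsta1 fell by 0.93 and 0.79, and of 22 antioxidant response genes 2 rose and 13 fell. Cyp2c55, Cyp2c29 and Gstm1 were called lower in Fzd5KO too (−0.48, −2.88 and −0.83). Of 11 genes of fetal-like epithelium 1 rose and 5 fell. The EGF receptor ligand genes Areg and Ereg went from 11.4 ± 0.75 to 4.40 ± 0.20 TPM (−1.20 ± 0.11) and from 4.69 ± 0.35 to 2.14 ± 0.14 TPM (−0.86 ± 0.082), and Clu was at 3.43, 3.28 and 2.57 TPM at day 1 and 3.34, 3.41 and 4.04 TPM at day 3, with overlapping groups and no call (0.17 ± 0.10, adjusted p = 0.206). Of 24 p53 targets 3 rose and 7 fell (1 and 10 with quantile normalization or median-of-ratios scaling), of 19 immediate early genes 3 rose and 8 fell, and of 15 mitochondrially encoded genes 1 fell, a count that was 0 to 3 over the alternatives.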
